A study of Danio rerio with 13 samples.

Results

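Intergenic peaks outside CpG islands made up 54631 of the 160561 reference peaks of methylated DNA in zebrafish ZF4 cells, or 34.0%. They are the peaks that the deposited annotation calls intergenic and does not mark as a CpG island, without those that start at 27000000 or beyond on chromosome 4, the long arm of that chromosome. Of 60503 intergenic peaks, 4179 were left out for the CpG island mark and 1693 others for lying on the long arm. No measured value was used to choose them among the reference peaks, which were themselves called from the reads of these libraries. The peaks lay on all 25 chromosomes, covered 55291049 of the 164554947 bases under peaks and did not overlap one another. None carried a gene.

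ZF4 is a fibroblast line derived from zebrafish embryos. Methylated DNA was captured with an antibody and sequenced (MeDIP-seq) from cells kept at 28°C and from cells held at 18°C, 5 or 30 days long, named 18°C /5d and 18°C /30d in the plots. Each of the 3 conditions is 1 library made from 3 pooled cultures, so the values of single cultures cannot be told apart and no difference between conditions has a replicate check. The identity of the cells cannot be checked from captured DNA, and RNA and input libraries were not analysed here.

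In vertebrates, a methyl group is placed mainly on cytosines followed by guanine, and most such sites outside CpG islands carry it. CpG islands are stretches rich in these sites, and those at active promoters are usually free of methylation. Intergenic DNA holds repeats, transposons and distal regulatory elements such as enhancers, and its methylation is best known for keeping transposons silent. The antibody pulls down DNA in proportion to both the number of methylated sites and the share of molecules that carry them, so a read count on a peak is not a methylation percentage, and a change in it cannot be assigned to single sites.

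The CpG island mark did not cover the genome evenly. On chromosomes 1 to 9 it ran over the whole length and took 12.2% of the intergenic peaks (95% Wilson interval 11.8 to 12.6). On the other 16 chromosomes the last marked peak started between 1958604 and 1999554, and none of the 33253 intergenic peaks beyond the first 2 Mb was marked. In the first 2 Mb of those 16 chromosomes 56.4% of intergenic peaks were marked, against 11.3% in the first 2 Mb of chromosomes 1 to 9. The 34010 peaks described here that lie on chromosomes 10 to 25, 62.3% of all, are therefore peaks without a mark, which does not show that they lie outside a CpG island. The main shares and densities are also given for chromosomes 1 to 9 alone, with 20621 peaks. The cause of the uneven marks was not tested.

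Just inside the bound on chromosome 4, the last 1 Mb held 44 such peaks with a median length of 742.5 bases, and 52.3% of them had reads in all 3 libraries. The first 1 Mb beyond it held 25 with a median length of 814 bases, and 52.0% had reads in all 3.

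Reads on these peaks numbered 987215 of 2952954 at 28°C, 814071 of 2465050 after 5 days and 803914 of 2406158 after 30 days. This is 33.4% of the reads on all peaks at 28°C (33.4 to 33.5), 33.0% after 5 days (33.0 to 33.1) and 33.4% after 30 days (33.4 to 33.5). The share differed by at most 0.41 percentage points between libraries, and these intervals cover counting error only. RPM, the reads on a peak divided by all reads on the reference peaks and multiplied by 1e6, sets the libraries on 1 scale. A gain or loss of methylation common to all peaks cancels on this scale and cannot be seen in RPM or its ratios. Among peaks with reads, the median was 17 reads or 5.76 RPM at 28°C, 13 reads or 5.27 RPM after 5 days and 16 reads or 6.65 RPM after 30 days. These medians are over different peaks in each library. Over the 25409 peaks with reads in all 3, the median was 7.79 RPM at 28°C, 7.30 RPM after 5 days and 8.31 RPM after 30 days.

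Per kilobase, the level on those 25409 peaks had a median of 6.85 RPM at 28°C, 6.54 after 5 days and 7.29 after 30 days. The other peaks of the table with reads in all 3 libraries stood at 6.76, 6.50 and 7.20 RPM per kilobase in the same order. Read density on intergenic peaks differed by at most 1.36% from that on the other peaks in each library. The distribution had a long upper tail: the 546 peaks with the most reads, 1% of all, held 8.96% of the reads on intergenic peaks at 28°C, 11.3% after 5 days and 8.03% after 30 days.

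A library either had at least 3 reads on a peak or was listed at 0, and no intergenic peak was listed with 1 or 2 reads. Reads were present in all 3 libraries on 46.5% of the intergenic peaks (46.1 to 46.9), against 48.3% of all other peaks (48.0 to 48.6). Reads in 1 library alone were found on 6769 peaks for the 5-day library, 5996 for 28°C and 5069 for the 30-day library. Reads in a pair of libraries and none in the third were found on 9.96% of all intergenic peaks for 28°C with 30 days, 6.44% for 28°C with 5 days and 4.44% for both 18°C libraries. For the other peaks these shares were 9.55%, 6.31% and 4.52%. On chromosomes 1 to 9, where the mark can be compared, 45.1% of the unmarked intergenic peaks (44.4 to 45.8) had reads in all 3 libraries. Of the 2871 marked ones, 70.5% did (68.8 to 72.1). The marked peaks were also longer, with a median of 1300 bases against 817.

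**Figure D1:**
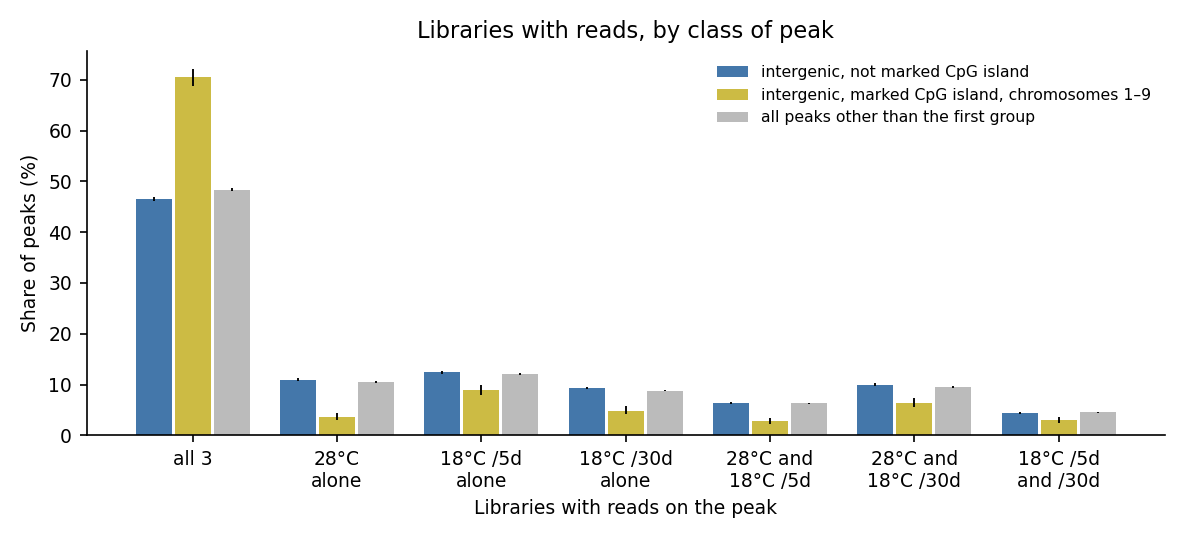
Share of peaks (%) by which libraries had reads, for 54631 intergenic peaks outside CpG islands, for 2871 marked intergenic peaks on chromosomes 1 to 9 and for the 105930 peaks other than the first group (which include the second), with 95% Wilson intervals. The first and the last group are close in every class, with 46.5% and 48.3% in the class with reads in all 3 libraries, while marked intergenic peaks reach 70.5%.

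A count of 0 became rarer as the lower count of the other libraries rose, up to a point. Where the lower count of the other 2 libraries on an intergenic peak was 5 to 9 reads, the 5-day library was at 0 on 44.7% of peaks, the 30-day library on 27.7% and the 28°C library on 22.6%. Where that lower count was 30 to 49 reads, the shares were 2.39% for the 5-day library, 0.642% for the 30-day library and 0.217% for 28°C. From 100 reads upward the shares were 3.80% for the 30-day library (14 of 368 peaks), 2.13% for 28°C (4 of 188) and 0.800% for the 5-day library (2 of 250). Peaks of all other classes had 2.33% (20 of 858), 0.696% (3 of 431) and 0.183% (1 of 546) in the same order. Counts of 0 at many reads were thus not particular to intergenic peaks. The 28°C library had at least 80 reads on each of the remaining intergenic peaks in its last class, so its counts of 0 there stood far from the rest. The lowest count above 0 in that class was 25 for the 30-day library and 14 for the 5-day library. A 0 on such a peak is given here as listed, without a fold change. Whether it stands for no captured DNA or for a step in making the table was not tested.

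**Figure D2:**
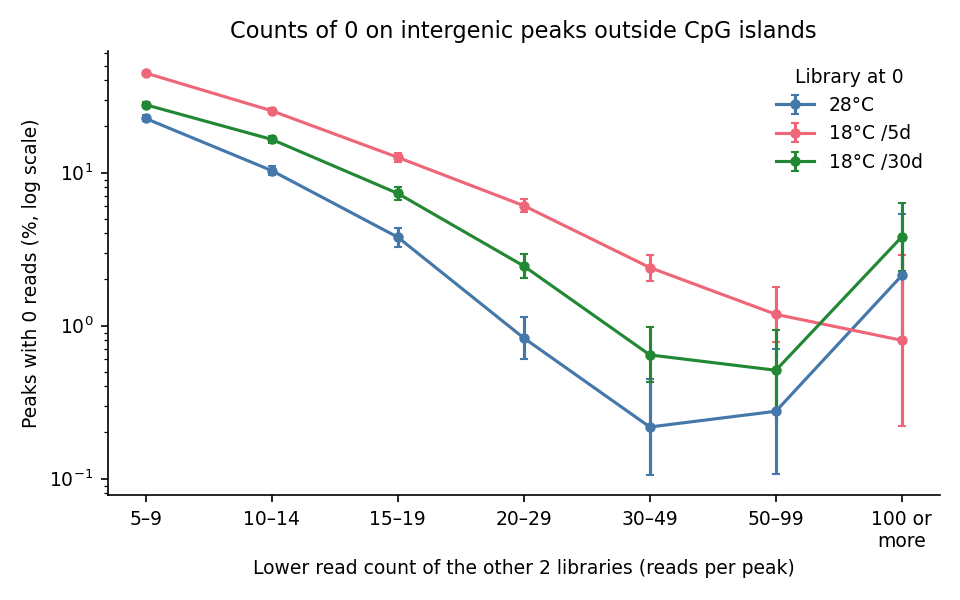
Share of intergenic peaks outside CpG islands at 0 reads in 1 library (%, log axis), by the lower read count of the other 2 libraries, with 95% Wilson intervals. The share falls from 44.7%, 27.7% and 22.6% at 5 to 9 reads, and for 28°C and 30 days it is higher at 100 or more reads (2.13% and 3.80%) than at 50 to 99.

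The 20 peaks at 0 in 1 library with 100 or more reads in both others were unevenly placed. They lay on 7 chromosomes, and 12 of them were on chromosome 15, which held 35 of the 456 intergenic peaks with 100 or more reads in at least 2 libraries. After these values were seen, peaks of this kind on chromosome 15 no more than 100 kilobases apart were joined, which gave 2 stretches with at least 3 of them. In chr15:20317699-20505721, 14 intergenic peaks held 2522 reads at 28°C, 3378 after 5 days and 631 after 30 days. Of the 14, 8 were at 0 at 28°C, 1 after 5 days and 11 after 30 days, and 1 had reads in all 3 libraries. In chr15:44908279-44959435, 7 intergenic peaks held 1653 reads at 28°C, 2787 after 5 days and 207 after 30 days. There 4 were at 0 at 28°C, 0 after 5 days and 5 after 30 days. On the intergenic peaks of both stretches the 30-day library had the fewest reads and the most peaks at 0. This follows in part from the choice: the stretches were joined from peaks picked for a 0. Over all chromosomes, 14 of the 20 peaks of that kind were at 0 after 30 days. The first stretch also held 2 peaks of other classes, with 375 reads at 28°C, 1418 after 5 days and 763 after 30 days. Coordinates are those of the Zv9/danRer7 assembly, counted from 1.

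The intergenic peaks had a median length of 842 bases, with 80% of them between 428 and 1744 bases and extremes of 244 and 44659. The other peaks had a median of 857.5 bases. Length went with the number of libraries that had reads. The median was 1101 bases for peaks with reads in all 3, 797 for those with reads in 2 and 570 for those with reads in 1. In the 8597 peaks under 500 bases, 5.59% had reads in all 3 libraries, against 94.3% of the 1642 peaks of 2500 to under 5000 bases. The reference peaks were built by merging the peaks of the 3 libraries, so a peak found in several libraries can become longer by its construction. Median read density among peaks with reads in the library ran the other way. At 28°C it fell from 8.70 RPM per kilobase in peaks under 500 bases to 4.06 in the 225 peaks of 5000 bases or more. In the same length classes it went from 8.87 to 5.07 after 5 days and from 9.89 to 3.75 after 30 days. Peaks without reads in a library are left out of its medians, which are thus over different peaks in each library. This leaves out more of the short peaks, which seldom had reads in all 3. Whether density falls with length when peaks without reads are counted in was not tested.

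Libraries were compared peak by peak with a two-sided Fisher's exact test on the reads, adjusted over all 160561 peaks (FDR). A peak is called higher or lower where the FDR was at most 0.01 and the ratio of (RPM + 1) at least 2 or at most 0.5. Such a call compares 2 libraries and does not carry over to the conditions. Both comparisons with 28°C share the 28°C library. The reference peaks were joined from peaks called in these same libraries. A peak could thus enter through the library where its reads were many, and the test then used those same reads. Calls on peaks without reads in a library are therefore not independent of how the peaks were chosen.

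After 5 days at 18°C, 13412 intergenic peaks were called, 24.6% of them, where 23.7% of all peaks were called. Of these, 6332 were higher (11.6%; all peaks 11.3%) and 7080 lower (13.0%; all peaks 12.5%). After 30 days 11298 were called, 20.7% of the intergenic peaks against 20.2% of all, with 6060 higher (11.1%; all peaks 10.9%) and 5238 lower (9.59%; all peaks 9.25%). Between the 18°C libraries 12911 were called, 23.6% against 22.9% of all peaks, with 8099 higher after 30 days (all peaks 14.4%) and 4812 lower (all peaks 8.50%). Each share lay within 1 percentage point of the share among all peaks. On chromosomes 1 to 9, 24.1% of the unmarked intergenic peaks were called after 5 days and 20.5% after 30 days. Of the marked intergenic peaks there, 17.1% and 10.0% were called. Among peaks with reads in both compared libraries the order after 5 days was the other way. There 4.21% of the unmarked (3.85 to 4.61) and 7.32% of the marked peaks (6.29 to 8.52) were called. After 30 days it was 0.376% (43 of 11446, 0.279 to 0.506) and 0.770% (17 of 2208, 0.481 to 1.23), with overlapping intervals.

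Most calls rested on a 0. After 5 days 90.3% of the called intergenic peaks had 0 reads in 1 of the compared libraries, and after 30 days 98.8% did. Among the called peaks of all other classes the shares were 90.4% and 98.6%, so this was not particular to intergenic peaks. Among peaks with reads in both libraries, 1297 of 28927 (4.48%; all peaks 4.22) were called after 5 days, 523 higher and 774 lower. After 30 days it was 140 of 30851 (0.454%; all peaks 0.461), 74 higher and 66 lower. Between the 18°C libraries it was 1248 of 27837 (4.48%; all peaks 4.26). With every 0 replaced by the smallest count of its library, 3 reads, the calls fell to 2732 after 5 days and 715 after 30 days. Shares among all peaks are not given for that setting.

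The balance of higher against lower calls depended on how low counts and library totals were handled. With at least 10 reads required in 1 library, higher peaks made up 35.3% of the calls after 5 days, against 47.2% in the full count. With library totals scaled by the median ratio, 49.3% of the calls after 30 days were higher, against 53.6%. No direction is therefore given for the intergenic peaks as a group.

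Where all 3 libraries had reads (25409 peaks), the log2 ratio of (RPM + 1) to 28°C had a median of -0.01 after 5 days and 0.06 after 30 days. The other peaks had medians of 0.01 and 0.06. The spread was wider after 5 days: 90% of these peaks lay between -1.05 and 0.86 after 5 days and between -0.59 and 0.72 after 30 days. For the other peaks the bounds were -1.05 and 0.85, then -0.60 and 0.72. A change of at least 2-fold, called or not, was seen in 8.89% after 5 days (other peaks 8.34%) and 1.77% after 30 days (other peaks 1.71%). Between the 18°C libraries 9.53% of these peaks differed at least 2-fold (other peaks 9.09%). The spread was thus close to that of the other peaks.

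**Figure D3:**
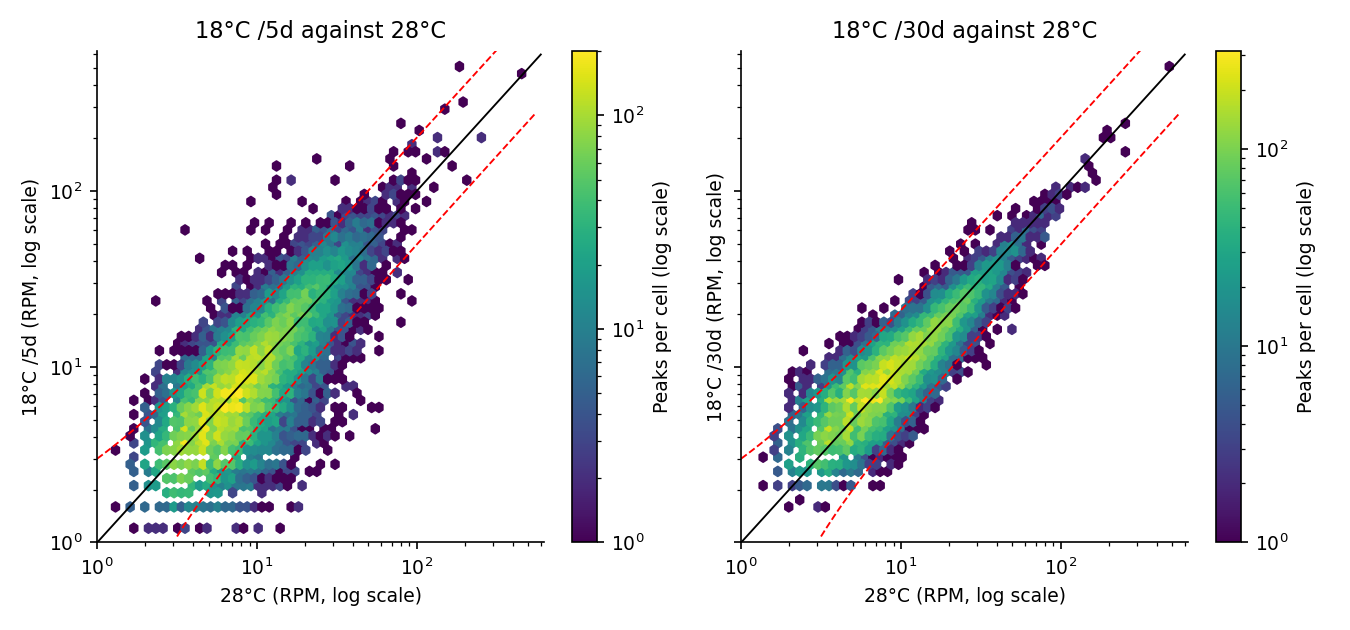
RPM at 28°C (x axis, log scale) against RPM after 5 or 30 days at 18°C (y axis, log scale) for the 25409 intergenic peaks outside CpG islands with reads in all 3 libraries; colour counts peaks per cell, the solid line marks equal RPM and the dashed lines a 2-fold ratio of (RPM + 1). Outside the dashed lines lie 8.89% of peaks after 5 days and 1.77% after 30 days. For the other peaks with reads in all 3 libraries, not drawn, the shares were 8.34% and 1.71%.

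Calls were more frequent in short peaks, which seldom had reads in all 3 libraries. Under 500 bases 39.2% of intergenic peaks were called after 5 days and 24.8% after 30 days, and from 500 to under 750 bases 28.6% and 30.0% were. From 2500 to under 5000 bases the shares were 12.9% and 5.42%. In the 225 peaks of 5000 bases or more they were 17.3% and 13.3%. Shares by length among all peaks are not given here, so this gradient is not shown to be particular to intergenic peaks.

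**Figure D4:**
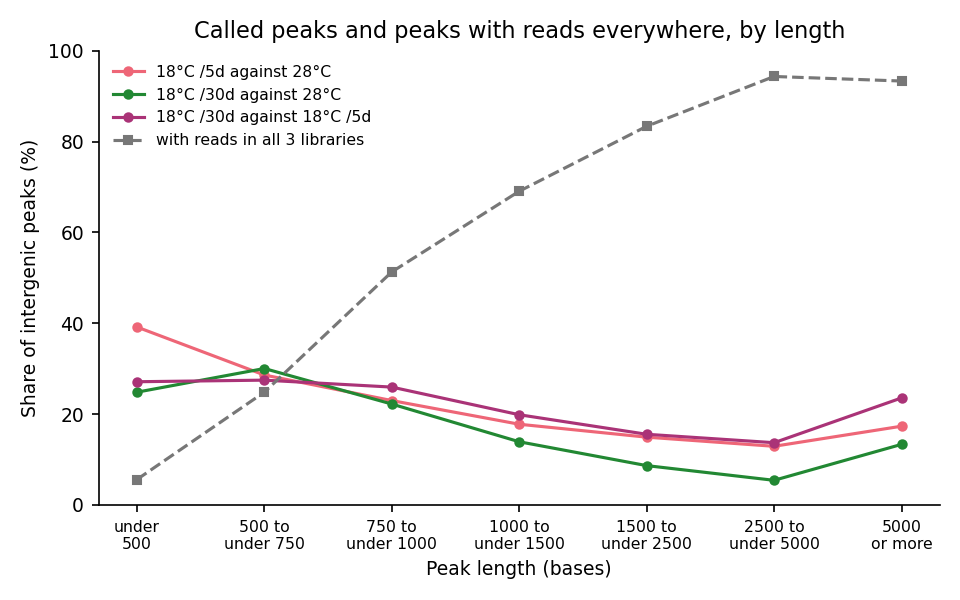
Share of intergenic peaks outside CpG islands (%) that were called in each of 3 comparisons, and share with reads in all 3 libraries, by peak length in bases. The share with reads in all 3 climbs from 5.59% to 94.3% between the shortest class and 2500 to under 5000 bases, while the share called after 5 days goes from 39.2% to 12.9%. Other peaks are not drawn.

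At both times in cold, 4429 intergenic peaks were called against 28°C, 8.11% (all peaks 7.88). Of these, 1615 were higher at both times (all peaks 2.98%), 2796 lower at both (all peaks 4.87%) and 18 changed direction. Nearly all were peaks without reads on 1 side: 1602 were at 0 at 28°C and 2762 at 0 in both 18°C libraries. The other peaks of the table were alike. Of those higher at both times, 3138 of 3171 were at 0 at 28°C. Of those lower at both, 4965 of 5017 were at 0 in both 18°C libraries. Such peaks entered the reference set through the libraries that had reads, and the same reads made the call. With reads in all 3 libraries, 13 intergenic peaks were higher at both times and 15 lower, 28 of 25409 (0.110%, where 0.106% of all such peaks were called at both times in the same direction). With only such peaks tested, which changes the FDR, 8 peaks were called at both times. Of the peaks with reads in all 3 libraries that are named next, only chr19:19998083-20000375 kept both calls in that setting. Each of the others lost the call at 5 days, at 30 days or at both. Both comparisons use the same 28°C reads.

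The highest of the 13 by the geometric mean of both ratios was chr16:21425402-21428978, with 21 reads at 28°C, 98 after 5 days and 45 after 30 days. The ratio of (RPM + 1) to 28°C was 5.02 after 5 days (FDR = 8.58e-14, Fisher's exact test) and 2.43 after 30 days (FDR = 0.00179), and the value at 30 days was called lower than at 5 days. It lies between an unnamed gene's promoter peak and, 61068 bases to its right, a promoter peak of SP8, a zinc finger transcription factor that acts in limb and brain development. The flanking genes are given as context only, since intergenic peaks were assigned to none.

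The next 4 had fewer reads at 28°C and after 5 days. On chr11:8470191-8471798 there were 7 reads at 28°C, 23 after 5 days and 29 after 30 days, ratios of 3.06 and 3.87. On chr7:38189196-38190328, between peaks of CHD9, a chromatin remodelling protein, and TOX3, an HMG-box protein, there were 10, 29 and 32 reads in the same order, ratios of 2.91 and 3.26. Both 18°C libraries stood above 28°C by similar amounts on these peaks, and neither peak was called between the 18°C libraries. On chr18:26064834-26066859 there were 7, 22 and 21 reads (ratios 2.94 and 2.89), and on chr19:19998083-20000375 there were 17, 39 and 50 (2.49 and 3.22).

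The lowest of the 15 was chr24:43601577-43603290, with 94 reads at 28°C, 10 after 5 days and 36 after 30 days. The ratios were 0.154 (FDR = 1.15e-12, Fisher's exact test) and 0.486 (FDR = 0.000910), and the value at 30 days was called higher than at 5 days. On chr20:13839001-13839908 the reads were 71, 12 and 22, ratios of 0.234 and 0.405. It lies 11291 bases from an exon peak of SLC30A1, which exports zinc from cells. On either side of chr24:40417139-40421517 lie an unnamed gene's promoter peak, 78736 bases away, and a peak of ntn2, a netrin of axon guidance, 131695 bases away. The reads on chr24:40417139-40421517 were 45, 8 and 14 (ratios 0.261 and 0.420). On chr20:15435860-15436633 they were 58, 14 and 18 (0.324 and 0.411). On chr16:53910095-53912830 they were 40, 10 and 11 (0.348 and 0.383). In all 5 the lowest count was after 5 days.

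Among peaks listed at 0 at 28°C and called at both times, the 3 with the most reads were all on chromosome 15. They were chr15:20895028-20902214 with 197 reads after 5 days and 123 after 30 days, chr15:44908279-44910381 with 160 and 118, and chr15:20418185-20420817 with 139 and 120. The last 2 lie in the stretches described above, in which several peaks were at 0. Of the peaks listed at 0 in both 18°C libraries, chr15:20460933-20461993 had the most reads at 28°C, 140. It lies in the same stretch as chr15:20418185-20420817, 40.1 kilobases away, so peaks at 0 on opposite sides of the comparison stood close together. The others were chr12:15482381-15483641, with 83 reads at 28°C, between peaks of mto1 and BECN1, an autophagy gene, and chr5:19305477-19307665, with 61.

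The 5-day library was called above both others on 2680 intergenic peaks (all peaks 4.65%) and below both on 3598 (all peaks 6.37%). With reads in all 3 libraries the counts were 262 (all such peaks 0.945%) and 423 (all such peaks 1.59%). The 30-day library was above both others on 3189 (all peaks 5.61%) and below both on 1582 (all peaks 2.81%), and on 12 (all such peaks 0.0509%) and 24 (all such peaks 0.0848%) with reads in all 3.

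The largest ratio to 28°C after 5 days among those 262 was on chr10:29730650-29731909, with 10 reads at 28°C, 150 after 5 days and 12 after 30 days, a ratio of 14.1. On chr8:25261734-25263744 the reads were 38, 341 and 32 (ratio 10.0), and on chr17:14090622-14091529 they were 40, 298 and 30 (ratio 8.38). In the other direction, chr21:3065695-3068131 had 157 reads at 28°C, 11 after 5 days and 97 after 30 days, a ratio of 0.101. On chr19:38736363-38737360, 33073 bases from an exon peak of gja4, a gap junction protein of vessels, the reads were 170, 14 and 131 (0.114). On chr7:6608177-6608764 they were 95, 7 and 60 (0.116). On each of these 6 peaks the 30-day and 28°C libraries did not pass the threshold against each other.

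The peak with the highest mean RPM, chr7:35921135-35923648, had 1397 reads at 28°C, 1174 after 5 days and 1282 after 30 days, or 473.1, 476.3 and 532.8 RPM. It was called in none of the 3 comparisons, and its nearest gene peak on the right, 40593 bases away, was in an intron of RFX7, a transcription factor. The next, chr6:59212055-59215025, had 570, 1254 and 483 reads, a ratio of 2.63 after 5 days and 1.04 after 30 days. The third, chr15:44942328-44953105, had 952, 1197 and 0 reads.

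The longest, chr6:49204186-49248844, spanned 44659 bases with 296 reads at 28°C, 226 after 5 days and 242 after 30 days, and was called in none of the 3 comparisons. It lies between a peak in an intron of an unnamed predicted gene and a promoter peak of KCNA2, a potassium channel. The next, chr6:6269358-6286517, had 185, 0 and 152 reads over 17160 bases. Its nearest neighbour, 782 bases away, had 85 reads in the library at 0. The third, chr13:46463805-46480646, had 47, 127 and 0 reads over 16842 bases and was called in opposite directions at the 2 times, with a ratio of 3.10 after 5 days and 0 reads after 30 days. It lies 50053 bases from a promoter peak of olig4, an oligodendrocyte lineage transcription factor gene of fish.

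Density differed between chromosomes. It ran from 25.1 intergenic peaks per Mb on chromosome 4, over the part kept, to 53.1 on chromosome 14, with a median of 41.6. On chromosomes 1 to 9 the range was 25.1 to 42.8 and on chromosomes 10 to 25 it was 33.1 to 53.1. Chromosome 14 also had the largest share of intergenic peaks among its peaks, 45.8%, against 27.8% on chromosome 4. Chromosome 6 had the longest peaks, with a median of 997 bases, and the highest read density in each library, 7.59 RPM per kilobase at 28°C, 7.79 after 5 days and 8.00 after 30 days. Chromosome 24 had the shortest peaks, with a median of 729.5 bases, and the lowest density, 5.40, 5.78 and 5.87 RPM per kilobase. The chromosomes with the highest and the lowest read density were thus the same in the 3 libraries. These densities are medians over peaks with reads in the library. Length and read density of the other peaks of a chromosome are not given here, so these differences are not shown to be particular to intergenic peaks.

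Relative to all reads on peaks, summed RPM on a chromosome changed little. RPM has the same total in every library, so these ratios do not show whether the level as a whole changed. The ratio to 28°C ran from 0.897 (chromosome 7) to 1.08 (chromosome 11) after 5 days and from 0.901 (chromosome 12) to 1.07 (chromosome 3) after 30 days. Shares of calls also varied. Higher peaks after 5 days made up 7.25% on chromosome 24 and 15.4% on chromosome 6 (all peaks of the series 11.3%). Lower peaks after 5 days made up 8.41% on chromosome 4 and 19.1% on chromosome 25 (all peaks 12.5%). After 30 days lower peaks made up 4.76% on chromosome 24 and 14.3% on chromosome 25 (all peaks 9.25%). Shares among all peaks of a single chromosome are not given here, so this spread is not shown to be particular to intergenic peaks. Chromosomes are not replicates, and no test was made between them.

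Along a chromosome more intergenic peaks lay in the end bins, summed, than in the central ones. Each chromosome but 4 was cut into 20 equal bins between its first and last peak. The first and last bins held 6600 intergenic peaks and the 2 central bins 3757, a ratio of 1.76, while the same ratio for all peaks was 1.79. The 2 end bins together held more peaks than the 2 central ones on 23 of 24 chromosomes, with ratios from 0.70 on chromosome 22 to 4.13 on chromosome 6. Taken singly, the first bin was above the mean of the central bins on 15 of 24, the last on 21 and both on 12. The CpG island marks moved with this result. On chromosomes 10 to 25 the first bin held 30.4 peaks per Mb, the central bins 31.4 and the last 60.3. On chromosomes 1 to 9 without 4 the first held 61.0, the central bins 25.4 and the last 58.1, and both ends were above the centre on 7 of 8 chromosomes, against 5 of 16. All peaks, marked or not, had 165.6 per Mb in the first bin and 165.9 in the last on chromosomes 10 to 25. With the marked intergenic peaks counted in, the first bin of those chromosomes held 55.3 per Mb. The ratio of ends to centre was 2.35 on chromosomes 1 to 9 (all peaks 1.92) and 1.45 on chromosomes 10 to 25 (all peaks 1.72).

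**Figure D5:**
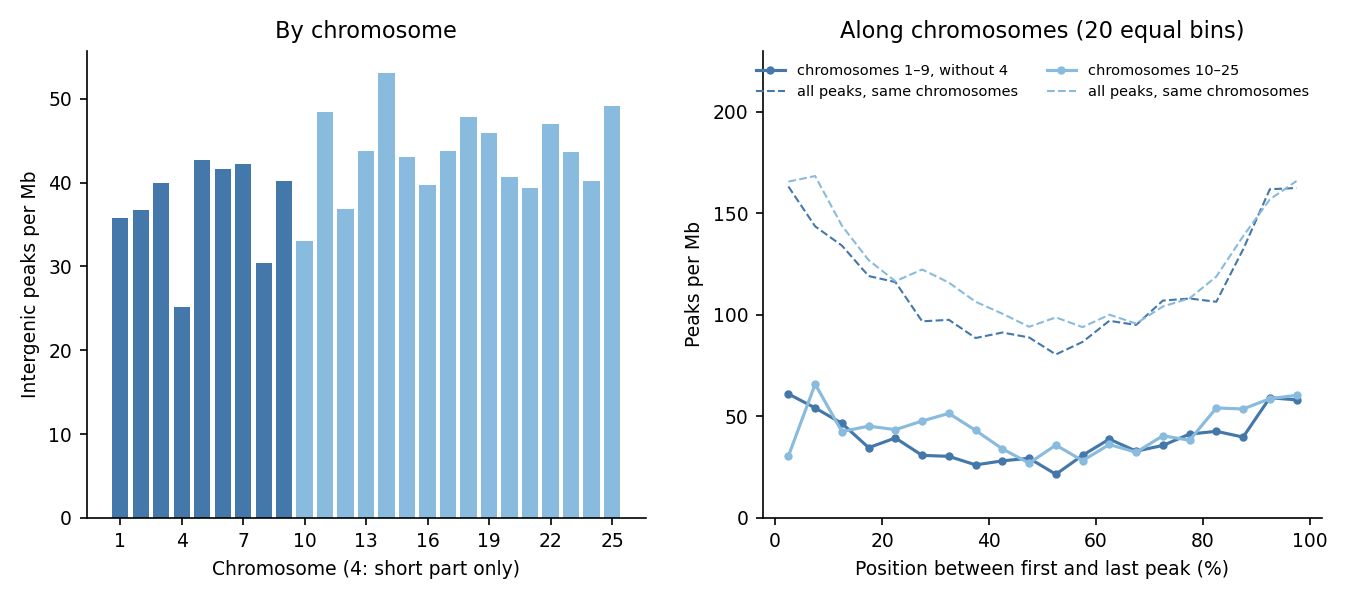
Left, intergenic peaks outside CpG islands per Mb on each chromosome (dark, 1 to 9; light, 10 to 25), from 25.1 to 53.1. Right, peaks per Mb in 20 equal bins from the first to the last peak of a chromosome (%), for these peaks (solid) and for all peaks (dashed), with 30.4 per Mb in the first bin of chromosomes 10 to 25 against 61.0 on chromosomes 1 to 9 without 4.

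In 1308 windows of 1 Mb the median was 36 intergenic peaks (10th and 90th percentiles 12 and 79), with 1 window at 0 and a maximum of 145. The median was 33 in the 534 windows of chromosomes 1 to 9 (11 and 77) and 38 in the 774 windows of chromosomes 10 to 25. The counts of intergenic and of other peaks had a Pearson r of -0.27 across the 1308 windows, which share chromosomes and are not replicates. The other peaks include the marked intergenic ones, so the uneven mark enters this r. It is not given here for chromosomes 1 to 9 alone. The densest was chr18:3000001-4000000, where 145 of 151 peaks were intergenic and unmarked, with a summed level of 1162 RPM at 28°C, 1122 after 5 days and 1086 after 30 days. Next were chr11:4000001-5000000, with 134 of 175, and chr1:3000001-4000000, with 133 of 156. On the chromosome 11 window the summed level was 1142 RPM at 28°C, 1520 after 5 days and 1150 after 30 days, and on the chromosome 1 window 766.7, 684.4 and 766.8 RPM. Over the 1029 windows with 20 or more such peaks, the ratio of summed RPM to 28°C lay between 0.691 and 1.29 after 5 days and between 0.811 and 1.19 after 30 days in 90% of windows.

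The longest stretch without an intergenic peak was chr20:31018717-32491080, 1472 kilobases with 125 peaks assigned to 18 genes. The next were chr7:25126215-26464874, 1339 kilobases with 90 other peaks and 26 genes, and chr23:29930870-31265384, 1335 kilobases with 137 other peaks and 18 genes. These stretches were gaps in intergenic peaks and not in captured DNA.

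Neighbouring intergenic peaks lay close together, with a median gap of 5064 bases, and 18.1% of 54606 neighbouring pairs were within 1 kilobase. The changes measured on neighbours had low correlations. Over 2908 pairs within 1 kilobase with reads in all 3 libraries, the log2 ratios to 28°C had a Pearson r of 0.09 after 5 days and 0.05 after 30 days. Counting error on few reads lowers such an r, and its part was not measured, so a low r does not show that neighbours change independently. Following a peak called lower at 5 days, the next peak within 1 kilobase was called lower in 16.7% of 1215 cases and higher in 9.96%. Of all intergenic peaks, 13.0% were called lower at 5 days and 11.6% higher. With a gap of 50000 bases or more, r was 0.07 after 5 days and 0.03 after 30 days over 1069 pairs. At that gap, the next peak after a lower one at 5 days was lower in 14.7% of 735 cases and higher in 12.7%. Whether the relation depends on distance was not tested.

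The nearest peak assigned to a gene was 37536 bases away in the median, and 15.1% of intergenic peaks had one within 10 kilobases. The share with reads in all 3 libraries ran from 46.2% to 46.9% over 6 classes of distance. From under 2 kilobases to 50 kilobases and beyond, higher calls after 5 days made up 10.8% to 11.9% of peaks and lower calls 12.6% to 13.8%. After 30 days higher calls made up 9.65% to 12.2% and lower calls 8.24% to 10.0%, with the highest share of higher and the lowest share of lower calls under 2 kilobases. No test was made between the classes.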

How the data were processed

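MeDIP-seq libraries of ZF4 cells, 1 for each of 3 conditions, were analysed. The authors mapped reads to Zv9/danRer7 with Bowtie2, called peaks in the single libraries with MACS, joined the 3 peak sets and counted reads on the merged peaks with bedtools. The deposited table gives counts of reads and RPM, which the authors scaled to 1e6 reads on peaks. Deposited RPM differed from RPM computed from the counts by at most 5e-04. Per the file headers it also gives each peak's region and CpG island mark, which chose the peaks, and the authors' own fold changes, p-values and calls, which were not used. Counts on peaks totalled 2952954 (28°C), 2465050 (18°C /5d) and 2406158 (18°C /30d). Reads were compared per peak by a two-sided Fisher's exact test (scipy 1.17.1), adjusted by Benjamini-Hochberg over 160561 peaks, and ratios used a pseudocount of 1 RPM. The test was run on simulated counts, with changes placed only on peaks with many reads. Those counts did not copy the pattern of zeros in the deposited counts, so calls that rest on a 0 were not checked. Intervals are 95% Wilson intervals and cover counting error only. Regions named were the most extreme of those called at both times, those at 0 with most reads, those set apart at 18°C /5d, the highest, the longest, the densest windows and the longest gaps. Gene symbols were found for 14167 of 18777 gene IDs. The peaks and the rules were chosen with earlier results of these data known. Other thresholds, scalings, read minimums, pseudocounts, treatment of zeros, chromosomes left out, bins and windows were tried. No sequence is shown.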

Additional observations from a re-analysis of the deposited data

Results flagged for a closer look

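On 12 of the named regions the reads after 30 days differed from those after 5 days by the Fisher's exact test of the 18°C libraries against each other (FDR at or under 0.01, ratio past 2-fold). On 6 of them, those on chromosomes 10, 8, 17, 21, 19 and 7, the choice of the region fixed this call, since they were named for a 5-day library apart from both others. The value is the ratio of (RPM + 1), 18°C /30d to 18°C /5d, and it compares 1 library with another, not the effects of the conditions. It was 0.483 on chr16:21425402-21428978, 0.0968 on chr10:29730650-29731909, 0.103 on chr8:25261734-25263744, 0.110 on chr17:14090622-14091529 and 0.396 on chr6:59212055-59215025, all lower at 30 days. It was 3.16 on chr24:43601577-43603290, 7.56 on chr21:3065695-3068131, 8.30 on chr19:38736363-38737360 and 6.75 on chr7:6608177-6608764, all higher at 30 days. On 3 regions 1 library was listed at 0, so the ratio depends on the added 1 RPM and is no fold change: 0.00206 on chr15:44942328-44953105, 64.2 on chr6:6269358-6286517 and 0.0190 on chr13:46463805-46480646.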

How the results depend on the processing

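Counts of called intergenic peaks are given in the order 18°C /5d against 28°C, 18°C /30d against 28°C, 18°C /30d against 18°C /5d, and both times. From 13412, 11298, 12911 and 4429 they fell to 890, 29, 837 and 8 when only peaks with reads in all 3 libraries were tested, to 2732, 715, 2802 and 201 with zeros set to the library's smallest count, and to 4662, 4121, 4116 and 1139 at an FDR of at most 0.001 and 4-fold. Shares among all peaks are not given for these settings, so the falls are not shown to be particular to intergenic peaks. On chromosomes 1 to 9 alone, chosen after seeing the data, which hold fewer peaks, they were 4979, 4218, 4785 and 1645, and 45.1% of peaks had reads in all 3 libraries. The share of reads was 34.4%, 33.9% and 34.4% (28°C, then 5 and 30 days) with the long arm of chromosome 4 kept, 31.3%, 30.9% and 31.3% without chromosome 6, and 11.8%, 11.4% and 12.0% on chromosomes 1 to 9, each by fewer or more peaks counted. Higher peaks were 47.2% of calls at 18°C /5d, but 36.9% with zeros replaced; at 18°C /30d they were 53.6%, but 31.0% with reads in all 3 and 63.9% at an FDR of at most 0.001 with 4-fold. Of 429 values of named regions 39 lost their call and 0 reversed. Keeping the long arm of chromosome 4, leaving out chromosome 6 or taking chromosomes 1 to 9 alone did not alter the test of a peak. The 55, 51 and 12 values from these settings were therefore bound to stay the same. Regions with a 0 were not tested where reads in all 3 libraries were required, and are not counted as lost there. The other 52 summary values stayed within set limits. For medians and the ratio of ends to centre the limit was the standard deviation over single peaks, windows or chromosomes. A median can hardly pass a limit that wide, so staying within it says little. With zeros replaced, the median log2 ratio moved from 0 to -0.149 at 18°C /5d and from 0 to 0.128 at 18°C /30d. On chromosomes 1 to 9 the ratio of ends to centre moved from 1.76 to 2.35. Scaffolds hold no peak, so leaving them out was not run. No paired analysis was possible because each condition has 1 MeDIP library. Depth limits small changes: among intergenic peaks with reads in a library, the median was 13 to 17 reads, and peaks at 0 are not in that median.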
